A study of Homo sapiens with 6 samples.

Results

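Keratins are the intermediate filament proteins of epithelial cells, and the messenger RNAs of 8 of them, KRT7, KRT8, KRT15, KRT17, KRT18, KRT19, KRT80 and KRT81, were followed in the papillary thyroid carcinoma cell line K1. The genes were chosen by symbol, as simple and stress-associated keratins with KRT19 as a marker of thyroid carcinoma, and each symbol was found once among the 20522 genes and loci listed per library. The libraries listed 55 keratin symbols in all. The study asked which messenger RNAs respond to a small interfering RNA (siRNA) against NEAT1_2, the long isoform of the non-coding RNA NEAT1. K1 cells received either a negative control siRNA (NC) or the NEAT1_2 siRNA (si-NEAT1_2) with a Lipofectamine reagent, and 3 libraries per group were sequenced. All 6 libraries came from this 1 cell line, and beside the siRNA their labels differ only by a library code. The time of harvest is not given in the sources used here. A further table gives 1 value per group and gene, here called the authors' group table. NEAT1 itself was not analysed here, so the groups are those of the labels.

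A keratin filament is built from heterodimers of 1 acidic type I chain and 1 basic type II chain, so that cells need both types. KRT8 (type II) and KRT18 (type I) form the basic pair of simple epithelia such as the thyroid follicle, joined by KRT7 (type II) and KRT19 (type I) in many glands and ducts. KRT15 (type I) belongs to the basal layer of stratified epithelia, KRT17 (type I) to skin appendages and to wounded or stressed epithelium, KRT80 (type II) to differentiating epithelia, and KRT81 (type II) is a hard keratin of the hair shaft. KRT81 is thus no simple-epithelial keratin in the usual sense, although it was chosen with them.

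KRT81 carried the highest value and has close copies in the genome. In GENCODE release 29 (GRCh38) it occupies positions 52285913 to 52291534 of chromosome 12, minus strand, within the span of another hair keratin gene, KRT86, which runs on the plus strand from 52249300 to 52309163. The exons of KRT81 and KRT86 share 0 bases of the genome, but 94.2% of their aligned coding bases are identical. Of all 50-base stretches of the KRT81 transcript, 44.6% occur in a transcript of some other gene and 38.4% in one of KRT86. The expected count of KRT81 was not a whole number in 6 of 6 libraries, though close to one, as with 115123.96 in NC replicate 1. Expected counts divide a read that could come from several genes among them. KRT86 was nevertheless listed at only 0.73 to 1.6 FPKM (fragments scaled by transcript length, per kilobase, and by library size). How far the division of shared reads sets either value was not tested.

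Shared stretches, counted on either strand, were also found for KRT18 and KRT8, the pair of simple epithelia. KRT18 shared 47.6% of its 50-base stretches, with 45 other genes, and KRT8 itself led these (21.5%). KRT8 shared 41.3%, with 37 other genes, led by KRT8P3 (24.1%). For KRT17 it was 16% and for KRT7 10.8%, mostly with its antisense gene KRT7-AS. KRT19, KRT80 and KRT15 shared the least, 1.79%, 0.42% and 0.328%. Counts that were not whole, though close to a whole number, were found for KRT8 and KRT18 in 3 libraries each and for the other 5 of these genes in 0. KRT8 (minus strand, 52897187 to 52949954) and KRT18 (plus strand, 52948871 to 52952901) also meet head to head on chromosome 12, where 525 exonic bases belong to both genes on opposite strands. Whether the counting used the strand is not given in the sources used here, and without it reads from these bases cannot be told apart.

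The positions of the remaining genes follow the keratin clusters. KRT80 (minus strand, 52168996 to 52192000) and KRT7 (plus strand, 52232520 to 52252186) complete the 5 members within 784 kb of chromosome 12. KRT15 (41513743 to 41522529), KRT19 (41523617 to 41528308) and KRT17 (41619441 to 41624842) lie on the minus strand of chromosome 17 within 111 kb. KRT18 is the one type I gene of the 8 in the type II cluster.

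The total expected count per library ranged from 22798631 to 27066025, and the 8 keratins together held 0.782% to 1.15% of it. A principal component analysis used the genes that passed the filter on low counts described below. It placed si-NEAT1_2 replicate 2 at 52.7 on the first component, which held 55.1% of the variance, and NC replicate 2 at -43.3. The remaining libraries lay between -15 and 15.9. Results that rest on si-NEAT1_2 replicate 2, the library furthest out, are therefore also given without it. Ranges over the omission of each library, NC replicate 2 among them, are given at the end. Nothing in the labels says that replicates came from separate cultures, so p-values measure only the spread between these libraries, which may be technical. Of the markers of thyroid follicular cells, PAX8 (113 to 169 FPKM), FOXE1 (5.75 to 8.78) and thyroglobulin, TG (2.48 to 2.99), were at 1 FPKM or more in every library. TSHR (0.03 to 0.08) and NKX2-1 (0 to 0.05) were below 1 FPKM in all libraries.

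The levels of the keratins spanned from a mean of 2324 FPKM to one of 0.298 FPKM over the 6 libraries, in the order KRT81, KRT8, KRT7, KRT18, KRT80, KRT15, KRT19 and KRT17. From KRT81 to KRT19 this order was the same in 6 of 6 libraries, and the ranges of neighbouring genes over the 6 libraries did not overlap. KRT19 exceeded KRT17 in only 4 of 6 libraries, with overlapping ranges, so this pair was not separated beyond its spread. The largest steps were from KRT18 to KRT80, where the mean level fell 12.2-fold, and from KRT15 to KRT19, where it fell 17.9-fold.

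**Figure D1:**
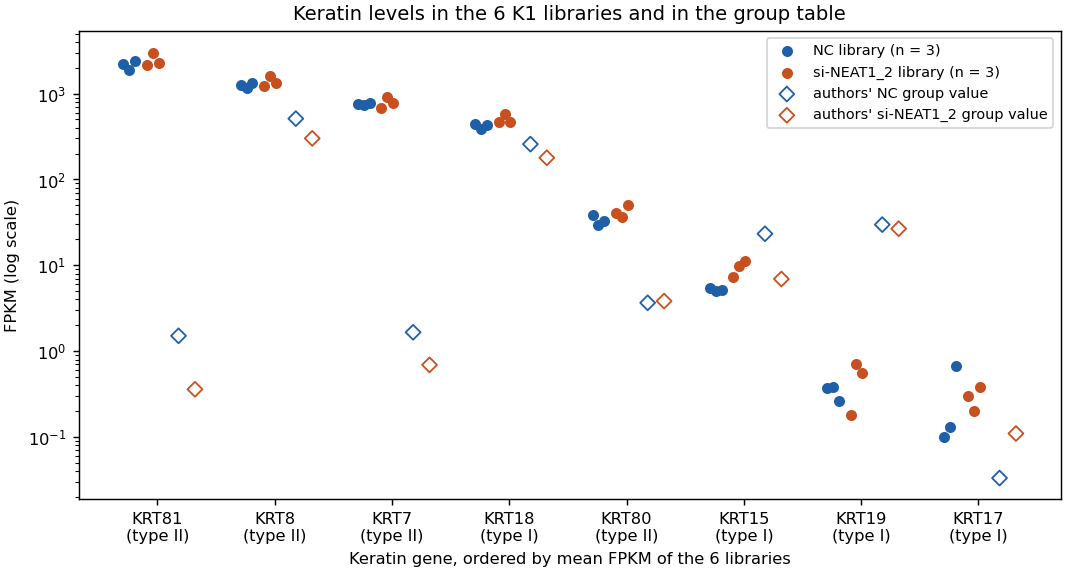
FPKM (log axis) of the 8 keratins in the 3 NC libraries (blue points), the 3 si-NEAT1_2 libraries (orange points) and the authors' group table (open diamonds, without replicates). KRT81, KRT8, KRT7 and KRT18 lie between 391 and 3009 FPKM in the libraries, whereas the group table has KRT81 and KRT7 below 2 FPKM and KRT19 near 30.

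Of the type II keratins, KRT81 measured 2205, 1896 and 2367 FPKM in NC replicates 1 to 3 and 2179, 3009 and 2290 FPKM in si-NEAT1_2 replicates 1 to 3. The groups overlapped, with si-NEAT1_2 replicate 2 highest and NC replicate 2 lowest, and KRT81 ranked 21st to 28th among all genes of a library. KRT8, the type II partner of KRT18, measured 1255, 1149 and 1316 FPKM with NC and 1212, 1586 and 1322 FPKM with si-NEAT1_2. KRT7, the second type II keratin of simple glandular epithelia, measured 765, 730 and 776 FPKM with NC and 684, 914 and 783 FPKM with si-NEAT1_2. Both had the pattern of KRT81, with si-NEAT1_2 replicate 2 above all other libraries and si-NEAT1_2 replicate 1 within or below the NC range. KRT80 was far lower, at 38.3, 29.9 and 33.0 FPKM with NC and 40.9, 36.3 and 49.8 FPKM with si-NEAT1_2. Its highest library was si-NEAT1_2 replicate 3, and its groups overlapped in FPKM because NC replicate 1 exceeded si-NEAT1_2 replicate 2.

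Of the type I keratins, KRT18 was the only abundant one, at 441, 391 and 435 FPKM with NC and 461, 579 and 472 FPKM with si-NEAT1_2. Every si-NEAT1_2 library lay above every NC library. KRT15 measured 5.39, 5.06 and 5.10 FPKM with NC, from 295, 215 and 273 counts, and 7.34, 9.81 and 11.3 FPKM with si-NEAT1_2, from 368, 497 and 541 counts. Its groups did not overlap either, and the NC libraries lay close together while the si-NEAT1_2 libraries spread. KRT19, the keratin stained as a marker of papillary thyroid carcinoma, was hardly present, at 0.37, 0.38 and 0.26 FPKM with NC (11, 12 and 9 counts) and 0.18, 0.70 and 0.56 FPKM with si-NEAT1_2 (6, 25 and 17 counts). KRT17 was listed at 0.10, 0.13 and 0.68 FPKM with NC (4, 2 and 12 counts) and at 0.30, 0.20 and 0.38 FPKM with si-NEAT1_2 (8, 8 and 10 counts). At such counts a difference between the groups was not detectable for either gene.

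Among the keratin transcripts, KRT81 made up 45.1% to 49.0% of the summed FPKM of the 8 genes per library, KRT8 25.9% to 27.3%, KRT7 14.9% to 17.4% and KRT18 8.82% to 10.1%. The 4 remaining keratins together filled the small rest. The composition differed little between libraries even where the sum did. The sum was 4710, 4201 and 4933 FPKM in the NC libraries and 4585, 6136 and 4928 FPKM in the si-NEAT1_2 libraries, and its mean was 13.0% higher with si-NEAT1_2 (5216 ± 814 against 4615 ± 375, SD, n = 3). Without si-NEAT1_2 replicate 2 the difference was 3.07%. These sums are descriptions and were not tested.

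**Figure D2:**
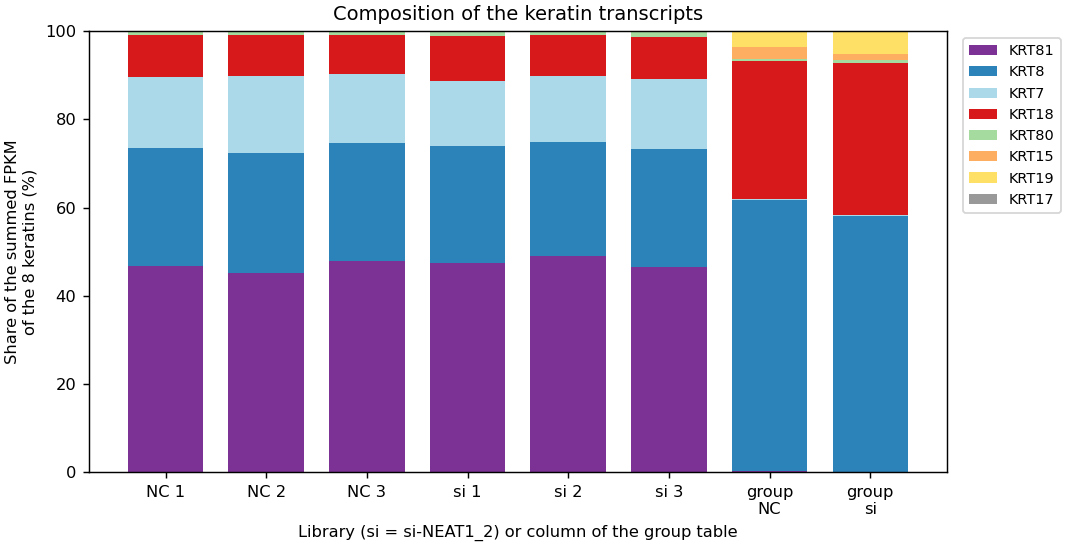
Share (%) of each keratin in the summed FPKM of the 8 keratins, for the 6 libraries (si stands for si-NEAT1_2) and for the 2 columns of the authors' group table. KRT81 takes 45.1% to 49.0% in the libraries, and in the group table KRT8 takes 61.6% (NC) and 58.1% (si-NEAT1_2).

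Type II transcripts outweighed type I transcripts in all libraries. The ratio of their summed FPKM was 9.54, 9.59 and 10.2 with NC and 8.77, 9.40 and 9.18 with si-NEAT1_2, with means of 9.77 ± 0.354 and 9.12 ± 0.32 (SD, n = 3). Every si-NEAT1_2 library lay below every NC library. Without KRT81 the ratio still ranged from 4.13 to 4.82, because KRT8 alone exceeded KRT18. The ratio of KRT8 to KRT18 was 2.85, 2.94 and 3.02 with NC and 2.63, 2.74 and 2.80 with si-NEAT1_2, again without overlap. With 3 libraries per group the two-sided exact permutation test gave p = 0.10 for this ratio, the smallest value that this design allows, and 5 such ratios were examined. That of KRT15 to KRT18 (0.0123 ± 0.000613 with NC, 0.0189 ± 0.00434 with si-NEAT1_2) did not overlap either, with the same p by this test. The ratio of KRT7 to KRT8 (0.611 ± 0.0231 with NC, 0.578 ± 0.0141 with si-NEAT1_2) and that of KRT81 to KRT8 (1.73 ± 0.0765 and 1.81 ± 0.0827) overlapped between the groups. So did that of KRT80 to KRT8 (0.0272 ± 0.00291 and 0.0314 ± 0.00765). Single genes did not overlap in FPKM in 12.4% of all tested genes, higher, and 15.3%, lower, and the share among ratios was not computed. In the fit described below, with a correction for GC content and length, the log2 fold changes were -0.02 for KRT8 and 0.00 for KRT18.

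To compare the groups gene by gene, the expected counts of all genes were rounded and scaled between libraries by the trimmed mean of M values (TMM). They were fitted with the quasi-likelihood method of edgeR, p was adjusted by the Benjamini-Hochberg procedure, and genes that reached a fold of 2 with an adjusted p under 0.05 were called. Of the 8 keratins, 7 passed edgeR's filter on low counts together with 13109 genes in all, and KRT17 did not. With edgeR, 0 of the 7 keratins were called, and the share of all tested genes called was 0% in either direction. Without adjustment, 2 of the 7, KRT15 and KRT80, had a p under 0.05 with a higher level in the si-NEAT1_2 libraries, beside 11.2% of all tested genes. Counted in both directions, 3165 genes had such a p. DESeq2 and limma-trend also called 0 of the keratins, while DESeq2 called 15 genes higher and 45 lower over the whole table.

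The fitted log2 fold change was above 0 for all 7 keratins tested, as for 50.9% of all genes, although that of KRT7, KRT8 and KRT81 fell below 0 with a correction for GC content and length. Its median was 0.33 against 0.01 over all genes, and with that correction 0.00 for the keratins and 0.00 over all genes. Without si-NEAT1_2 replicate 2 it was 0.14, over the 8 keratins that then passed the filter. The 7 genes are not independent of each other, and the abundant ones were highest in the same library. In these bulk libraries, a change in the number of cells that express a keratin and one in its RNA per cell cannot be told apart.

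KRT15 had the largest difference, 1.89-fold higher with si-NEAT1_2 (log2 fold change 0.91, SE 0.183), from 10.2 ± 0.899 CPM (TMM-normalized counts relative to the library total) with NC to 19.2 ± 3.65 with si-NEAT1_2 (SD, n = 3). Its unadjusted p of 0.000401 was the 23rd lowest of all genes, and its adjusted p with edgeR was 0.17. The lowest adjusted p of the whole table was 0.0659. Among the alternatives run, the gene passed both thresholds only when si-NEAT1_2 replicate 1 was left out (log2 fold change 1.06, edgeR adjusted p = 0.0493), and DESeq2 gave an adjusted p of 0.00419 at a fold below the threshold, within a range of 0.00419 to 0.557 over the alternatives. The FPKM groups gave p = 0.10 by the two-sided exact permutation test. Beside this difference, the summed FPKM of 8 general epithelial markers, of which only ELF3 (5.43 to 9.05) and EPCAM (1.27 to 1.73) reached 1 FPKM in all libraries and CDH1 stayed at 0.08 to 0.38, was 7.47 to 8.58 with NC and 10.4 to 11.4 with si-NEAT1_2. That of 9 fibroblast markers, led by lumican, LUM (16.2 to 25.0), was 25.8 to 30.3 with NC and 20 to 23.2 with si-NEAT1_2. In both lists the groups did not overlap. For single genes this held in FPKM for 12.4% of all tested genes, higher, and for 15.3%, lower. The summed thyroid follicular markers overlapped, at 140 to 146 FPKM with NC and 122 to 181 with si-NEAT1_2, as did the sums of the remaining marker lists. The part of these markers in the result was not tested.

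KRT80 was 1.31-fold higher with si-NEAT1_2 (log2 fold change 0.39, SE 0.146, unadjusted p = 0.023, edgeR adjusted p = 0.175), at 128 ± 17.4 CPM with NC and 167 ± 22.9 with si-NEAT1_2. On this scale its groups did not overlap. Its log2 fold change kept its direction in the 17 alternatives run and lay between 0.22 and 0.48.

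**Figure D3:**
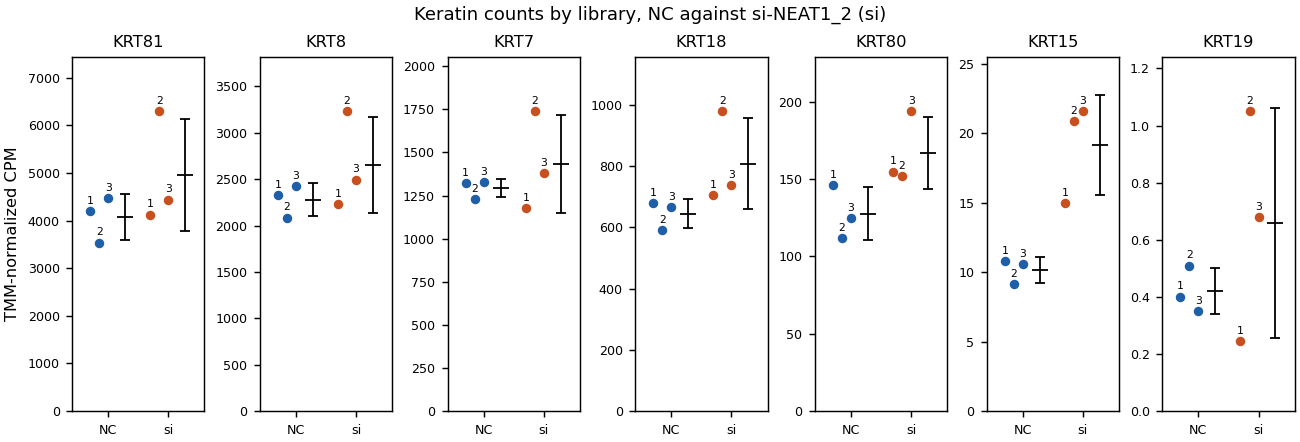
TMM-normalized CPM of the 7 keratins tested, by library (points, numbered by replicate), with the mean and SD of each group (bars, n = 3, si stands for si-NEAT1_2). In KRT81, KRT8, KRT7, KRT18 and KRT19 the highest point is si-NEAT1_2 replicate 2, and in KRT15 and KRT80 it is replicate 3.

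KRT18 was 1.25-fold higher (log2 fold change 0.33, SE 0.152, edgeR adjusted p = 0.215) and KRT81 1.22-fold higher (0.28, SE 0.185, adjusted p = 0.344). KRT8 and KRT7, with log2 fold changes of 0.22 (SE 0.163) and 0.15 (SE 0.158), had adjusted p values of 0.404 and 0.565. None of these 4 abundant keratins passed the test, and without si-NEAT1_2 replicate 2 their log2 fold changes were 0.15 for KRT18, 0.06 for KRT81, 0.04 for KRT8 and -0.02 for KRT7. In FPKM, the groups of 2 keratins, KRT15 and KRT18, did not overlap, both higher with si-NEAT1_2, beside 12.4% of all tested genes. On the CPM scale there were 3, with KRT80, beside 15.4%. The two-sided exact permutation tests of the 8 keratins in FPKM gave p values from 0.10 to 1.

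The libraries also differed in how counts followed the GC content and length of transcripts. For KRT7, with 62.9% GC, this trend amounted to -0.15, -0.35 and -0.11 on the log2 scale in the NC libraries and -0.03, 0.47 and 0.19 in the si-NEAT1_2 libraries. It was highest in si-NEAT1_2 replicate 2, as the level of KRT7 was. For KRT81 it ranged from -0.34 to 0.43 and for KRT80 from -0.17 to 0.14. With the trend removed from each library, the log2 fold changes became -0.28 for KRT7 (SE 0.0752) and -0.13 for KRT81 (SE 0.0866), so their direction turned. The edgeR adjusted p of KRT7 was then 0.179. Those of KRT8 and KRT18 became -0.02 (SE 0.0977) and 0.00 (SE 0.0794), each within its SE of 0. KRT15, KRT80 and KRT19 kept their direction, at 0.83 (SE 0.152), 0.22 (SE 0.102) and 0.15 (SE 0.523). The value of KRT19 also lay within its SE of 0. For KRT15 the correction used the longest annotated transcript, of 5237 bases.

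**Figure D4:**
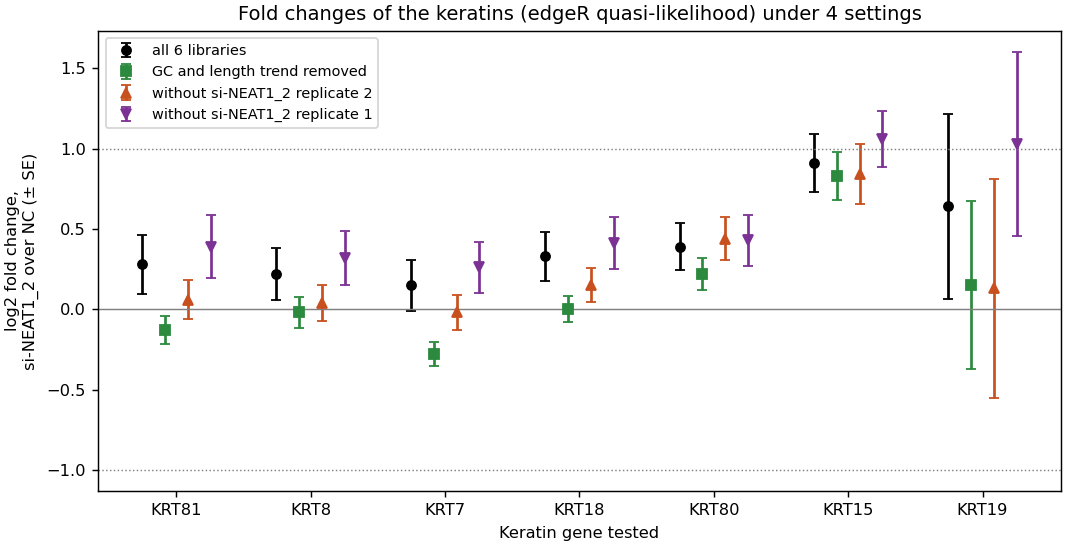
Log2 fold change (si-NEAT1_2 over NC, bars are the SE of the edgeR fit) of the 7 keratins tested, with all 6 libraries, with the trend of counts with GC content and length removed, and without si-NEAT1_2 replicate 2 or 1. Dotted lines mark a fold of 2. KRT7 lies at 0.15, -0.28, -0.02 and 0.26 under these settings, and KRT15 at 0.91, 0.83, 0.84 and 1.06.

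KRT19 was fitted at a log2 fold change of 0.64 with an SE of 0.577 (edgeR adjusted p = 0.487), and without si-NEAT1_2 replicate 2 it was 0.13. KRT17, fitted only when the filter was dropped, had a log2 fold change of 0.59 with an SE of 0.854 (edgeR adjusted p = 0.722).

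Over the 6 libraries, the gene whose log2 CPM followed KRT8 most closely was TSSC4 (Pearson r = 0.999), then PGP and HTRA2 (both 0.997), among 5653 genes whose log2 CPM averaged 5 or more. Of these genes 1071 had an r above 0.9, so the pattern of KRT8 was a common one. The r of KRT8 was 0.99 with KRT81, 0.97 with KRT7, 0.96 with KRT18, 0.71 with KRT15 and 0.39 with KRT80. For KRT19, LIG1 (0.978), NOP14 (0.973) and CDK11A (0.969) came first, although its own values rest on 6 to 25 counts. These values are descriptions over 6 libraries that share depth and GC trends.

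Other keratins were nearly silent. Of 22 further type II genes, 20 stayed below 1 FPKM in all libraries and 3 were tested, KRT78, KRT86 and KRT79, with log2 fold changes of 0.91, 0.74 and 0.56 and edgeR adjusted p values of 0.186, 0.185 and 0.349. Of 24 further type I genes, 21 stayed below 1 FPKM and 3 were tested. KRT10, a keratin of differentiating epidermis, led these at 11.8 FPKM with a log2 fold change of 0.17, followed by KRT34 (1.14 FPKM, 0.20) and KRT33B (0.713 FPKM, 0.90). The basal keratins KRT5 and KRT14 reached at most 0.24 and 0.12 FPKM. Over both lists 0 genes had an edgeR adjusted p under 0.05, and 2 (KRT78 and KRT86, both higher) of the 6 tested had an unadjusted p under 0.05, beside 11.2% of all tested genes.

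Keratin filaments are anchored to the membrane at desmosomes, between cells, and at hemidesmosomes, towards the matrix. Of 20 desmosome and linker genes, 13 were tested, with a median log2 fold change of -0.17 against 0.01 over all genes. Without adjustment 1 had a p under 0.05 with a higher level, JUP (plakoglobin, log2 fold change 0.41), and 3 with a lower one, DST (dystonin, -1.09), DSG2 (desmoglein-2, -0.48) and PERP (-0.34), beside 11.2% of all tested genes higher and 12.9% lower. Their edgeR adjusted p values were 0.17, 0.17, 0.172 and 0.17, so 0 passed the test. Plectin, PLEC, the linker at 125 FPKM, had a log2 fold change of -0.18. Of the 4 hemidesmosome genes 3 were tested, with a median of 0.16. CD151 (539 FPKM) was fitted at 0.16, ITGA6 (26 FPKM) at -0.42 with an unadjusted p of 0.0126 and an edgeR adjusted p of 0.17, and COL17A1 (3.42 FPKM) at 0.27.

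Among 16 other intermediate filament genes, 8 were tested, with a median log2 fold change of -0.01. Vimentin, VIM, the filament of mesenchymal cells and of many cultured lines, measured 2576 to 2765 FPKM, beside 1896 to 3009 for KRT81, with a log2 fold change of 0.04. The lamins LMNA (384 FPKM) and LMNB2 (94.6 FPKM) had log2 fold changes of 0.13 and 0.04. The lowest value was that of SYNC, -0.46 (unadjusted p = 0.0297, edgeR adjusted p = 0.179), and 0 of the 8 passed the test.

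The authors' group table gave a different picture of the same genes. Its NC column held 17678761 counts and its si-NEAT1_2 column 19579897, fewer than any library. It held the 8 keratins once each and an unannotated locus that also carries the symbol KRT8, at 1.05 and 0.613 FPKM. Without replicates, its differences have no error and no test.

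In that table KRT81, the most abundant keratin of the libraries, was listed at 1.51 FPKM for NC and 0.36 for si-NEAT1_2. The NC value is 1425-fold below the mean of the NC libraries and the si-NEAT1_2 value 6923-fold below that of the si-NEAT1_2 libraries. KRT7 was listed at 1.66 and 0.693 FPKM, 455-fold and 1145-fold lower. KRT19 went the other way, at 29.8 and 26.7 FPKM, 88.4-fold and 55.6-fold above the libraries. KRT80, at 3.66 and 3.83 FPKM, was 9.22-fold and 11.1-fold lower. The simple-epithelial pair differed less, with KRT8 at 511 and 301 FPKM and KRT18 at 258 and 179 FPKM, 2.43-fold and 1.64-fold below the NC libraries in the NC column. KRT15 was listed at 23.3 FPKM for NC, 4.50-fold above, and at 6.93 FPKM for si-NEAT1_2, 1.37-fold below the mean of the si-NEAT1_2 libraries. KRT17 rested on 1 and 2.33 counts, and no fold is given for it.

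Of 7 keratins with at least 1 FPKM in the NC libraries or the NC column, 6, all but KRT15, had both columns outside the range of the 6 libraries, as did 57.5% of all such genes. In the NC column 4 were at least 2-fold lower, beside 19.7% of all such genes, and 2 were at least 2-fold higher, beside 15.6%. A gap of at least 100-fold downwards, seen for KRT81 and KRT7, occurred in 0.986% of genes. Related genes differed in this respect. VIM was listed at 3234 and 2276 FPKM and LMNA at 377 and 352, against means of 2688 and 384 over the libraries. The desmosome genes DSP (2.01 and 0.293, against 18.5), PKP2 (0 and 0, against 4.79) and DSG2 (6.18 and 5.04, against 26.6) and the integrin ITGA6 (4.3 and 2.99, against 26) were listed below their library values. Other members of the same lists were not. CD151 (572 and 659, against 539) and COL17A1 (5.2 and 9.65, against 3.42) were listed above their library means. JUP (29.5 and 5.67, against 23) was above in the NC column and below in the si-NEAT1_2 column. Over 19684 genes the correlation of log2(FPKM + 1) was 0.977 to 0.996 between libraries, 0.979 between the columns of the group table, and 0.913 to 0.937 between a library and a column. How the group values were made is not given in the sources used here.

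The direction between the groups also differed. In the si-NEAT1_2 column of the group table, 6 keratins were lower than in the NC column, KRT81 by 4.2-fold, KRT15 by 3.37-fold, KRT7 by 2.40-fold, KRT8 by 1.70-fold, KRT18 by 1.45-fold and KRT19 by 1.11-fold, and KRT80 was 1.05-fold higher. Of 7 keratins with at least 1 FPKM in either column, 3 were at least 2-fold lower, beside 14% of such genes, and 0 at least 2-fold higher, beside 3.43%. In the libraries the fitted log2 fold changes of these 6 genes were above 0, while KRT7, KRT8 and KRT81 fell below 0 with the GC and length trend removed. The summed FPKM of the 8 keratins in the group table was 829 for NC and 518 for si-NEAT1_2, a difference of -37.5%, and the ratio of type II to type I was 1.66 and 1.44. In the group table the general epithelial markers summed to 2.23 FPKM for NC and 0.73 for si-NEAT1_2, and the fibroblast markers to 67.7 and 25.8. The fibroblast sums rest on different genes. In the group table THY1 led, at 58.3 and 20.9 FPKM, against 0.28 to 0.67 in the libraries. LUM, which led in the libraries at 16.2 to 25.0 FPKM, was listed at 0.43 and 0.693.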

How the data were processed

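Messenger RNA was enriched by the authors with oligo(dT) beads and rRNA depletion, and 6 libraries of K1 cells (3 NC, 3 si-NEAT1_2) were grouped by their labels. Per the study's methods the authors mapped reads with TopHat2 and quantified them with RSEM. The submitters' processing notes name fastp 0.18.0, Bowtie2 2.2.8, HISAT2, StringTie 1.3.1 and GRCh38, and which tool made which value is not settled by these sources. The deposited expected counts are estimates per gene and library that were not normalized. The deposited FPKM values were computed by the authors, who scaled them for transcript length and library size, and the deposited group table holds 1 expected count and 1 FPKM value per gene and group. Every value column was assigned to a library or group, with 0 unmapped. GENCODE release 29 held all 19684 Ensembl identifiers listed and gave positions, transcripts and GC content.

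Counts were rounded, filtered with filterByExpr and scaled by TMM. Testing was done with edgeR 4.0.16 (glmQLFit and glmQLFTest, R 4.3.3) over 13109 genes, with no covariate. For single values a two-sided exact permutation test was used, which cannot go below p = 0.10 with 3 libraries against 3. The fits were tested on simulated data. DESeq2 1.42.0 and limma 3.58.1 (limma-trend on log2(FPKM + 1) and log2(FPKM + 0.1)) were alternatives, with other scalings and filters, a block for the replicate number, the library code in the labels as a covariate, a spline correction for GC content and length with 5 degrees of freedom on 12581 genes, and the omission of each library. The members and lists were chosen with earlier results of these data known. Named were the 8 keratins and, of each list of related genes, the 3 with the highest mean FPKM and those with the highest and lowest log2 fold change at an average log2 CPM of at least 3, and other genes named were chosen after their values were seen. Marker lists not described with the results, those of squamous or basal epithelium (10.3 to 14.2 FPKM summed, nearly all KRT10), blood (0.37 to 0.69) and endothelium (0.07 to 0.20), held few transcripts. Coding sequences of GENCODE transcripts were aligned with Biopython 1.88.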

Additional observations from a re-analysis of the deposited data

How the results depend on the processing

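Of 190 alternative values for the keratins, their sums and the counts of genes, 163 kept their direction and their side of the thresholds, or their size. Over all genes, the counts called higher and lower with si-NEAT1_2, 0 and 0 with edgeR, were 15 and 45 with DESeq2, 9 and 9 without a filter, 1 and 3 with the trend of GC content and length removed, 87 and 126 without adjustment of p, 0 and 1 without TMM scaling, and 0 and 1 with limma-trend on log2(FPKM + 0.1). When a library was left out they ranged from 0 to 32 and from 0 to 184, highest without si-NEAT1_2 replicate 1, and were 1 and 2 without si-NEAT1_2 replicate 2. The number of keratins called was 0 to 1, and the 1 was KRT15 without si-NEAT1_2 replicate 1. Its log2 fold change ranged from 0.82 to 1.06 without a library, that of KRT80 from 0.27 to 0.48, KRT18 0.15 to 0.41, KRT19 0.13 to 1.03, KRT81 0.06 to 0.39, KRT8 0.04 to 0.32 and KRT7 -0.02 to 0.26. The cause of these shifts was not tested.

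The sign turned with the trend of GC content and length removed for KRT7 (-0.28), KRT81 (-0.13) and KRT8 (-0.02). With that correction and the replicate block it turned for KRT7 (-0.28), KRT81 (-0.13), KRT8 (-0.03) and KRT18 (-0.0017). The values of KRT8 and KRT18 lay within their SE of 0. Apart from these, the replicate block kept every direction, with 0 genes called and 1538 at an unadjusted p under 0.05, against 3165 without it. The study's methods speak of 3 pairs of samples, and the labels do not say whether the replicate numbers mark them. The deviations of libraries with the same number from their group means correlated at -0.282, -0.365 and -0.00797. With 3 libraries per group these values cannot show whether the samples were paired. The summed FPKM differed by 13.0%, by 3.07% to 19.9% without a library and by -37.5% in the group table. The difference in the ratio of type II to type I was -0.65, -0.80 to -0.45 without a library and -0.22 in the group table. Depth limits KRT17 and KRT19, at 2 to 25 counts per library.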
